A study of Mus musculus with 6 samples.

Results

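The Wnt ligands, their receptors and their modulators were measured in the vestibular epithelium of mice given an ototoxic nitrile. The 57 protein-coding genes were matched by a pattern in their symbols. They comprise 19 Wnt ligands, 10 Frizzled receptors, 2 LRP co-receptors, 7 R-spondins and LGR receptors, 11 secreted inhibitors, 2 cell-surface E3 ligases, 2 Axins and 4 TCF/LEF factors, among 52636 genes in the table, of which 22027 are protein-coding. The pattern uses no measured value, but it was set with earlier results of these data known.

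Wnt proteins are secreted glycoproteins that bind Frizzled receptors and, in the canonical branch, the co-receptors LRP5 and LRP6, which stops the Axin complex from degrading β-catenin and lets it join TCF/LEF factors on target genes. R-spondins and their LGR receptors raise the number of Frizzled receptors at the cell surface by removing the E3 ligases ZNRF3 and RNF43, while DKK, SFRP, FRZB, WIF1 and NOTUM proteins restrain the ligands or their receptors outside the cell. In the inner ear, Wnt signals pattern the otocyst, direct proliferation and fate in the sensory epithelia, and, through the planar cell polarity branch, orient the hair cells (HCs), the cells that carry the mechanosensory bundle.

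Vestibular sensory epithelium was taken from male 129S1/SvImJ mice, with 3 animals per group and 1 RNA-seq library per animal. The mice were 2 to 4 months old when the treatment began, and tissue was taken on its last day. IDPN mice drank water containing 30 mM 3,3'-iminodipropionitrile, a nitrile toxic to vestibular HCs, over 8 weeks, and Control mice drank plain water over the same time. Each library holds the pooled 2 utricles and 6 cristae of a single animal. No transgene or deletion is named for either group. The Control animals share a title code that no IDPN animal has, so whatever that code marks and the treatment cannot be told apart.

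The libraries held 40474847 to 43566332 counts. The first principal component of the 500 most variable genes (58.7% of their variance) put the Control libraries at −16.3 to −10.1 and the IDPN libraries at 1.83, 27.1 and 8.52, so IDPN 2 stood far from its group. Of 20 HC markers, none was at 0, and their summed normalized counts were 35932 to 40005 in Control and 25742 to 27266 in IDPN. This separation was read after median-of-ratios scaling. In raw counts, the HC sum of IDPN 1 was above that of Control 1. DESeq2 called 9 HC markers lower and none higher, beside 3.42% of all genes tested called lower and 2.32% higher. Of the 20 HC markers, 19 were lower (16 with libraries scaled by total count). In these bulk samples, fewer cells of a type and less RNA per cell cannot be told apart. Among the other marker lists, the supporting cell, neuron and melanocyte sums did not overlap between the groups. The supporting cell sum was 425272 to 617918 in Control and 319328 to 376773 in IDPN (3 of 16 markers called, all lower). The neuron sum was 5391 to 5585 and 3468 to 3650 (4 of 9 called, all lower), and the melanocyte sum 6685 to 14843 and 15009 to 22921 (0 of 7 called). Schwann cell, dark and transitional cell, stroma, macrophage, endothelium, and bone and cartilage sums overlapped. The Schwann cell sum was 249222 in Control 1 and 106401 to 135441 in the other libraries, and 11 of 13 macrophage markers were higher (0 called). Under total-count scaling, the calls were 3 of 20 HC and 1 of 16 supporting cell markers, all lower, 4 of 7 melanocyte markers, all higher, and 0 of the 5 neuron markers with a mean of at least 10 normalized counts. With that scaling, 1.28% of all genes tested were called lower and 3.64% higher. The part of these cell types in the Wnt differences was not tested.

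Calls required a DESeq2 adjusted p (Padj) under 0.05 together with a change of more than 1.5-fold. Of the 57 members, 46 had a mean of at least 10 normalized counts (counts divided by the library's size factor), and 47 received a Padj. DESeq2 called 4 of these 47 (8.51%), beside 5.75% of all 17650 genes tested. *Wnt3*, *Dkk2* and *Sfrp4* were downregulated (3.42% of all genes tested were called lower) and *Axin1* was upregulated (2.32% called higher). *Wnt3* was the one member that edgeR's quasi-likelihood test also called, beside 3.21% of the genes it tested (2.19% called lower). With libraries scaled by total count in place of median-of-ratios size factors, DESeq2 called *Wnt3* lower and *Axin1* higher, beside 4.92% of all genes tested then (1.28% lower and 3.64% higher). An unadjusted p under 0.05 was found for 13 members. Of these, *Wnt9b* had no Padj and lies outside the 47. Among the 17650 genes with a Padj, 16.9% had such a p. The members were spread to both sides of 0. Of the 46 members, 24 were lower and 22 higher in IDPN, and the median log2-Fold_Change (IDPN over Control) was −0.033, beside 0.012 for 14175 protein-coding genes at the same level.

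**Figure D1:**
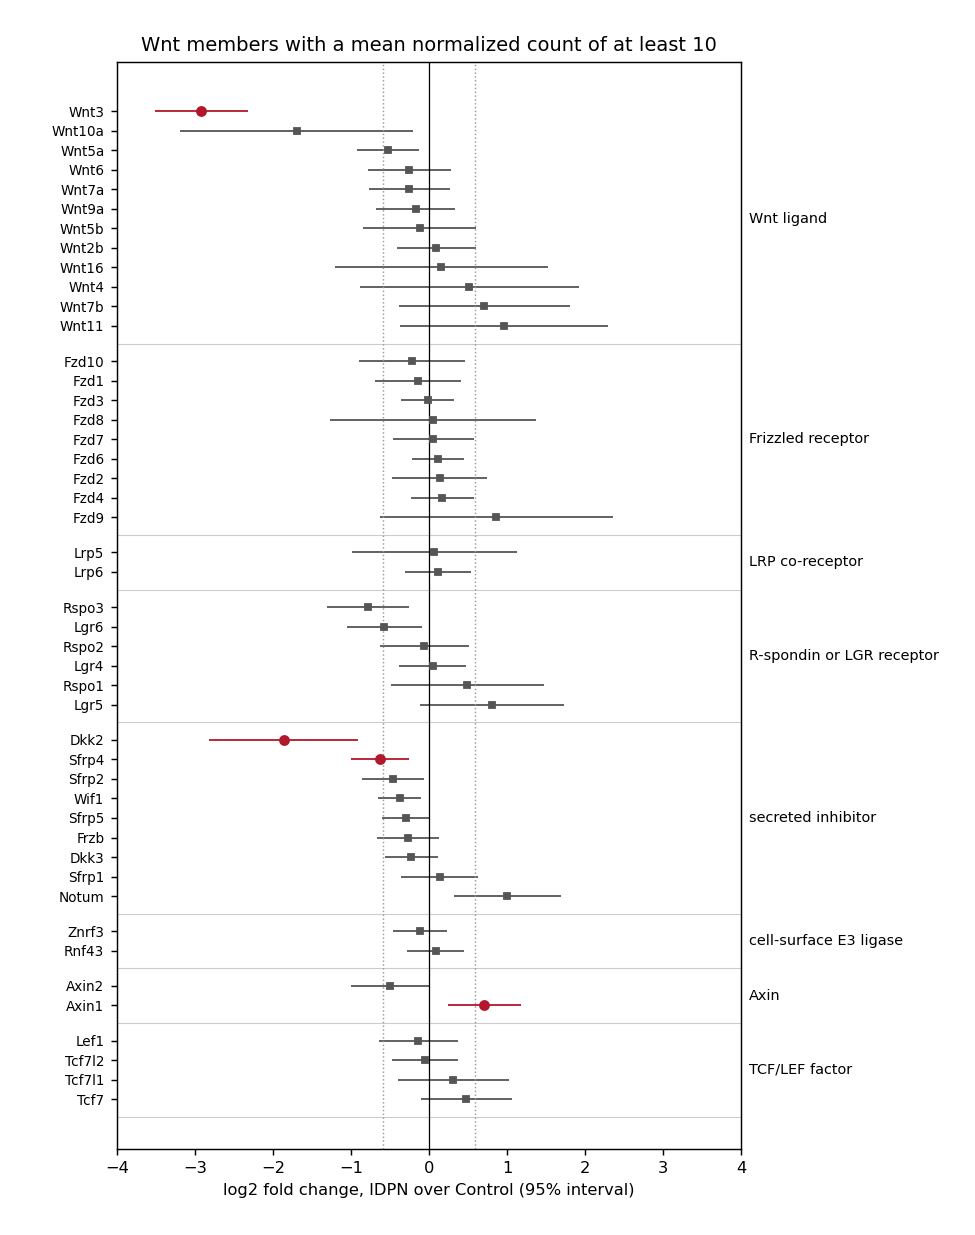
Log2 fold change of IDPN over Control (x axis) for each of the 46 Wnt members with a mean of at least 10 normalized counts, by role, with bars for the 95% interval of the DESeq2 estimate (n = 3 per group). *Wnt3* lies at −2.92, far to the left of the other members, and most of the bars cross 0.

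Of the 46 members, 12 had groups that did not overlap (26.1%, beside 23.1% of all genes at that level). In 8 of them the IDPN libraries were the lower ones (11.8% of all genes at that level) and in 4 the higher ones (11.3%). By role, 5 of the 12 were secreted inhibitors (*Wif1*, *Sfrp5*, *Sfrp4*, *Sfrp2* and *Notum*), 3 were ligands (*Wnt5a*, *Wnt3* and *Wnt11*), 2 were the Axins, and *Lgr6* and *Tcf7l1* made up the rest. *Notum*, *Wnt11*, *Axin1* and *Tcf7l1* were the 4 on the higher side. These separations were read after median-of-ratios scaling. In raw counts, from libraries with similar totals, *Wif1*, *Sfrp5*, *Sfrp2*, *Wnt5a*, *Lgr6*, *Axin2* and *Tcf7l1* overlapped between the groups. The choice of scaling moved the directions too. Scaling by total count shifted the median gene by 0.25, and 34 of the 46 members were then higher.

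Among the ligands, *Wnt3* had the smallest Padj of the family. WNT3 is a canonical ligand, known for its roles in gastrulation and in stem cell niches. Its gene (ENSMUSG00000000125.5) lies at chr11:103774150-103817957, plus strand, in GRCm38, and shares no exon base with another annotated gene. The libraries held 361, 636 and 410.1 normalized counts in Control and 79.4, 40.2 and 65.3 in IDPN. Every IDPN library was far below every Control library, with no overlap, and Control 2 was the highest. The group means were 469 ± 146 and 61.6 ± 19.9 normalized counts (SD, n = 3 each). *Wnt3* fell by 2.92 on the log2 scale (SE 0.30, 95% interval −3.52 to −2.33, DESeq2 Padj = 5.28e-19), and edgeR's quasi-likelihood test gave an adjusted p of 0.00131. With each library left out in turn, its log2-Fold_Change lay between −3.14 and −2.64 and its DESeq2 Padj between 9.84e-17 and 5.51e-12. It was called under each of the alternative settings, including total-count scaling (−2.63, DESeq2 Padj = 6.48e-11).

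The RefSeq promoter windows of *Wnt3* and *Dkk2* are shown because these members had the largest called differences. Both are on the plus strand of GRCm38.p6, written 5′ to 3′, and the capitals mark a TATA box (TATAAA) or a CCAAT box read on the minus strand (ATTGG). The *Wnt3* window, chr11:103773925-103774149, holds the 225 bases of the RefSeq window that lie before the annotated start used here, and its GC content over the whole window was 68.0%. The *Dkk2* window, chr3:132085042-132085291, holds 250 bases, with a GC content of 55.6%.
Wnt3: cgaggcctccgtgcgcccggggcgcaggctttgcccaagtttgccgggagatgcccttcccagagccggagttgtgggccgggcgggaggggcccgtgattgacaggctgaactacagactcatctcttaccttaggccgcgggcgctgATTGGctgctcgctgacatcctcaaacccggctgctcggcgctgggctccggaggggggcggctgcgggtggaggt
Dkk2: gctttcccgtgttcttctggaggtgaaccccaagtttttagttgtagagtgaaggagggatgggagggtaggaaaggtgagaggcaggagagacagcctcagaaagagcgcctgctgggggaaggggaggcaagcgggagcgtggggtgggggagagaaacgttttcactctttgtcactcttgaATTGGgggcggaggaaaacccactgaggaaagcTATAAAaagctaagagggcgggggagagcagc

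The *Wnt3* window holds the reversed CCAAT box 101 bases before the RefSeq start. In the *Dkk2* window, the TATA box begins 32 bases and the reversed CCAAT box 65 bases before the start. Neither window holds CTTTGA, a core of the TCF/LEF recognition sequence, on either strand. Over 37 members with a RefSeq window, 4 held CTTTGA (10.8%), beside 13.8% of all 32851 windows of 250 bases. TATAAA was in 5 members (13.5%, beside 12.4% of all windows) and CCAAT in 11 (29.7%, beside 33.8%), each searched on both strands. The median GC content was 69.2% for members and 52.4% for all windows. *Sfrp4* and *Axin1* had no entry in this table.

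Of the 12 ligands with a mean of at least 10, 7 were lower and 5 higher, and *Wnt3* was called (under total-count scaling 4 were lower and 8 higher). Per kb of exon, *Wnt5a* (718 normalized counts per kb over the 6 libraries), *Wnt7b* (575) and *Wnt7a* (350.3) were the highest, and the libraries of neighbours in this order overlapped. *Wnt5a*, the main ligand of the non-canonical branch, had 8142, 5959 and 5799.9 normalized counts in Control and 5367, 3519 and 4914 in IDPN. Each IDPN library was below each Control library, though IDPN 1 and Control 3 lay close together. Its log2-Fold_Change of −0.53 (SE 0.20, 95% interval −0.92 to −0.13) did not pass (DESeq2 Padj = 0.104), and was −0.23 under total-count scaling (DESeq2 Padj = 0.636). The antisense gene Gm2670 overlaps 4.58% of its exon bases and held 33.1 to 55.2 normalized counts. Within the shared bases, these unstranded reads cannot be separated from those of *Wnt5a*.

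*Wnt7b*, a canonical ligand of many epithelia, had 996, 2121 and 3290.1 normalized counts in Control and 2983, 5098 and 2406 in IDPN. Control 1 was the lowest library and IDPN 2 the highest, and the groups overlapped. The difference of 0.71 (95% interval −0.39 to 1.81) did not pass (DESeq2 Padj = 0.587). *Wnt7a*, an epithelial ligand, had 1326, 1094 and 1204 normalized counts in Control and 768, 1568 and 706 in IDPN. IDPN 2 was above every Control library, while IDPN 1 and IDPN 3 were below every one of them. With all libraries the log2-Fold_Change was −0.25 (DESeq2 Padj = 0.724), and without IDPN 2, the library that stood apart, it was −0.71 (DESeq2 Padj = 0.00585). *Wnt7a* was singled out after its values were seen.

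*Wnt10a*, a ligand of skin, hair and teeth, was low, at 20.6, 43.9 and 11.6 normalized counts in Control and 11.6, 6.02 and 5.6 in IDPN. Control 3 and IDPN 1 were at the same level. The difference of −1.70 (95% interval −3.19 to −0.20) did not pass (DESeq2 Padj = 0.203). The other ligands above the minimum, *Wnt6*, *Wnt2b*, *Wnt9a*, *Wnt5b*, *Wnt4*, *Wnt16* and *Wnt11*, had log2-Fold_Changes between −0.25 and 0.96, and none passed. *Wnt11* was the highest of these, with 13.3, 12.7 and 7.12 normalized counts in Control and 17.4, 25.1 and 21.5 in IDPN. Its IDPN libraries were above its Control libraries, but the interval was wide (95% interval −0.37 to 2.29, DESeq2 Padj = 0.522).

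The remaining 7 ligands were at or near the floor of detection. *Wnt3a* and *Wnt8b* had 0 counts in all libraries, which allows up to 3 counts, or 0.0689 to 0.0741 CPM, per library for counting error alone. *Wnt2*, *Wnt10b*, *Wnt1* and *Wnt8a* had at most 7 counts in a library. *Wnt9b*, the neighbour of *Wnt3* on the opposite strand with 24328 bases between them, had raw counts of 2, 0 and 13 in the Control libraries and 0, 0 and 0 in the IDPN libraries. Its counts came almost wholly from Control 3, and no fold is given. Of the other neighbouring pairs, *Wnt6* and *Wnt10a*, 6193 bases apart on chromosome 1, had log2-Fold_Changes of −0.25 and −1.70, and *Wnt9a* (−0.17) lies 16175 bases from the undetected *Wnt3a*.

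**Figure D2:**
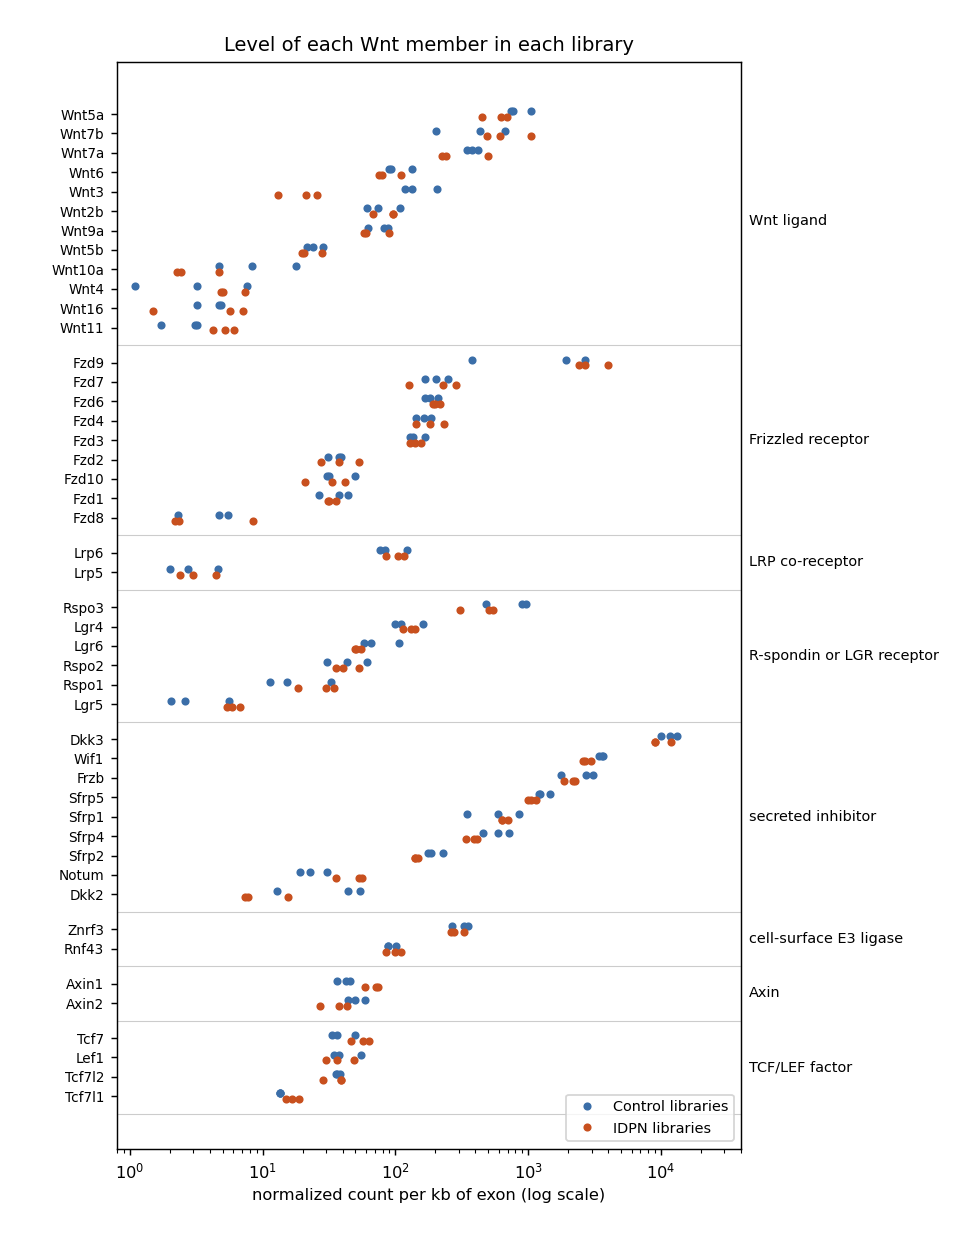
Normalized count per kb of exon on a log axis (x axis) for each member with a mean of at least 10 normalized counts in each library, 3 Control and 3 IDPN points per gene, by role. *Dkk3* is the highest, at a mean of 10821 per kb, the *Wnt3* IDPN points sit apart from its Control points, and *Fzd9* has 1 Control point far below the rest.

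Frizzled receptors, the receptors of Wnt ligands, showed no called member. Of 9 with a mean of at least 10, 3 were lower and 6 higher (0 lower and 9 higher under total-count scaling), with a median log2-Fold_Change of 0.057, and no group separated. *Fzd9*, which is also known from neural and bone tissue, made up 73.8% of the summed level per kb. Its libraries held 869.6, 4417 and 6145 normalized counts in Control and 5555, 9129.6 and 6131 in IDPN. Control 1 was below every other library by a wide margin, while Control 3 lay inside the IDPN range. The difference of 0.86 (95% interval −0.63 to 2.36) did not pass (DESeq2 Padj = 0.644), and it ranged from 0.39 to 1.39 with each library left out.

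*Fzd7*, the next highest per kb at 209 beside 2344 for *Fzd9*, had 759, 908 and 1124 normalized counts in Control and 1042, 570.3 and 1293 in IDPN. IDPN 2 was the lowest library and IDPN 3 the highest, so the groups overlapped throughout. Its log2-Fold_Change was 0.057 (95% interval −0.46 to 0.58, DESeq2 Padj = 0.954), and it turned negative without Control 1 (−0.073) or IDPN 3 (−0.21). *Fzd6* and *Fzd3*, the receptors best known from planar polarity, had log2-Fold_Changes of 0.12 (95% interval −0.22 to 0.45) and −0.016 (95% interval −0.35 to 0.32). Those of *Fzd4*, *Fzd2*, *Fzd10*, *Fzd1* and *Fzd8* lay between −0.22 and 0.17. *Fzd5* was under the minimum, with raw counts of 2, 4 and 7 in the Control libraries and 13, 18 and 9 in the IDPN libraries. Its IDPN libraries were above its Control libraries, but the log2-Fold_Change of 1.47 (95% interval −0.41 to 3.34) did not pass (DESeq2 Padj = 0.470).

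The LRP co-receptors were likewise not called. *Lrp6* had 1141, 1040.0 and 1684 normalized counts in Control and 1417, 1164 and 1594 in IDPN. The libraries of the groups were interleaved, at a log2-Fold_Change of 0.11 (95% interval −0.31 to 0.53, DESeq2 Padj = 0.878). *Lrp5*, whose product is known from bone and the retinal vasculature, was much lower, at 19.4, 45 and 26.7 normalized counts in Control and 29, 43.2 and 23.3 in IDPN. Per kb, *Lrp6* made up 96.8% of the summed level of both. The *Lrp5* groups overlapped too, and its log2-Fold_Change was 0.066 (95% interval −0.99 to 1.12, DESeq2 Padj = 0.975). Its sign, and that of *Lrp6*, depended on single libraries: *Lrp5* was −0.17 without Control 1, −0.021 without Control 3 and −0.21 without IDPN 2, and *Lrp6* was −0.027 without Control 2.

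Among the R-spondins and LGR receptors, 3 of 6 were lower and the others higher (2 lower under total-count scaling), and none was called. *Rspo3*, the R-spondin best known from vessels and epithelial stem cell niches (ENSMUSG00000019880.10, chr10:29452416-29535867, minus strand), made up 70.2% of the summed level per kb. It had 2969, 2781 and 1492 normalized counts in Control and 1689.9, 947 and 1575 in IDPN. Control 1 and Control 2 were above all IDPN libraries, but Control 3 was below IDPN 1 and IDPN 3. The log2-Fold_Change of −0.78 (SE 0.27, 95% interval −1.30 to −0.26) lay just outside the threshold (DESeq2 Padj = 0.0513). It passed without Control 3 (−1.03, DESeq2 Padj = 0.000737) and without IDPN 1 (−0.93, DESeq2 Padj = 0.0481), and was −0.45 under total-count scaling (DESeq2 Padj = 0.399).

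*Lgr6*, a receptor for R-spondins that marks epithelial stem cells in skin, had 450.0, 395 and 729.5 normalized counts in Control and 338, 376 and 348 in IDPN. The IDPN libraries lay close together below all Control libraries, of which Control 3 was the highest. Its log2-Fold_Change of −0.57 (SE 0.25) did not pass (DESeq2 Padj = 0.174), and was −0.37 under total-count scaling (DESeq2 Padj = 0.532). *Lgr4*, a widely expressed R-spondin receptor and second to *Rspo3* per kb, had 588, 646 and 953 normalized counts in Control and 767, 827 and 667 in IDPN. The groups overlapped, at 0.046 (95% interval −0.38 to 0.47, DESeq2 Padj = 0.955), and the sign turned without Control 1 (−0.091), Control 2 (−0.038) or IDPN 2 (−0.025).

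*Lgr5*, a receptor that marks supporting cells with progenitor capacity in the neonatal cochlea, was low in these adults, at 26.7, 20.8 and 56.9 normalized counts in Control and 68.7, 60.2 and 55.1 in IDPN. Control 3 lay within the IDPN range, and the difference of 0.80 (95% interval −0.12 to 1.72) did not pass (DESeq2 Padj = 0.396). *Rspo2* and *Rspo1* had log2-Fold_Changes of −0.063 and 0.49, and neither passed. *Rspo4* had 0 counts in all libraries.

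Secreted inhibitors held the highest levels of the family. Per kb, their sum was 20487 ± 2256 for Control animals and 17089.8 ± 1797 for IDPN animals (SD, n = 3 each), of 26869 ± 1283 and 24351 ± 2759 for all members. Of 9 with a mean of at least 10, 7 were lower, 2 of them called, and 2 were higher (5 lower, none of them called, and 4 higher under total-count scaling). The median log2-Fold_Change was −0.29, and −0.035 under total-count scaling.

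*Dkk2* encodes a Dickkopf protein that binds LRP5 and LRP6 and can act for or against canonical signaling by context. The gene (ENSMUSG00000028031.6) lies at chr3:132085292-132180304, plus strand, just after the window printed above, and shares no exon base with another annotated gene. It had 47.3, 164 and 200.2 normalized counts in Control and 57.1, 27.1 and 28.9 in IDPN. Control 2 and Control 3 were the high libraries, while Control 1 lay below IDPN 1, so the groups overlapped. The means were 137 ± 79.9 and 37.7 ± 16.8 normalized counts (SD, n = 3 each). *Dkk2* fell by 1.86 on the log2 scale (SE 0.49, 95% interval −2.82 to −0.90, DESeq2 Padj = 0.00452). It did not pass edgeR's quasi-likelihood test (adjusted p = 0.0941) or total-count scaling (−1.64, DESeq2 Padj = 0.0530), nor without Control 2 (−1.72, DESeq2 Padj = 0.103). The same held with Control 3 removed (−1.48, DESeq2 Padj = 0.0974) and with IDPN 3 removed (−1.70, DESeq2 Padj = 0.0758).

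*Sfrp4* encodes a secreted Frizzled-related protein, which binds Wnt ligands through a Frizzled-like domain (ENSMUSG00000021319.7, chr13:19623104-19632994, plus strand). It had 2971, 2456 and 1912 normalized counts in Control and 1419, 1705 and 1625 in IDPN. All IDPN libraries were below all Control libraries, with the smallest gap between Control 3 and IDPN 2. The means were 2447 ± 529.8 and 1583 ± 147 (SD, n = 3 each), and *Sfrp4* fell by 0.63 (SE 0.19, 95% interval −1 to −0.25, DESeq2 Padj = 0.0225). This call was lost in edgeR's quasi-likelihood test (adjusted p = 0.0809), under total-count scaling (−0.36, DESeq2 Padj = 0.306), and without Control 1 (−0.47, DESeq2 Padj = 0.208), Control 2 (−0.63, DESeq2 Padj = 0.122), IDPN 1 (−0.55, DESeq2 Padj = 0.156), and likewise IDPN 3 (−0.65, DESeq2 Padj = 0.0949).

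*Notum* encodes a carboxylesterase that removes the lipid from Wnt proteins (ENSMUSG00000042988.10, chr11:120653788-120661175, minus strand). It had 46.1, 54.2 and 73 normalized counts in Control and 127, 86.3 and 135 in IDPN. All IDPN libraries were above all Control libraries, with IDPN 2 nearest to them. The log2-Fold_Change was 1 (SE 0.35, 95% interval 0.32 to 1.69), and it did not pass (DESeq2 Padj = 0.0603). It passed with a filter on low counts (DESeq2 Padj = 0.0452), without Control 3 (1.22, DESeq2 Padj = 0.0261) and without IDPN 2 (1.18, DESeq2 Padj = 0.0481). The antisense gene Notumos overlaps 29.4% of its exon bases and held 1.21 to 9.04 normalized counts. Strand cannot separate the reads of the pair within the shared bases.

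*Wif1*, whose product binds Wnt ligands directly, was second of the inhibitors per kb (3147), after *Dkk3* (10821). It had 8880.3, 8752 and 8252 normalized counts in Control and 6439, 7191 and 6309 in IDPN. After median-of-ratios scaling the groups were apart, with a log2-Fold_Change of −0.38 (SE 0.14, 95% interval −0.66 to −0.098) that did not pass (DESeq2 Padj = 0.097). Under total-count scaling the log2-Fold_Change was −0.13 (DESeq2 Padj = 0.745), and the raw counts of the groups overlapped. *Sfrp2*, another Wnt-binding SFRP, had 379.6, 492 and 399 normalized counts in Control and 316, 301 and 304 in IDPN. Its IDPN libraries were also all below its Control libraries, at −0.46 (SE 0.20, DESeq2 Padj = 0.184).

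*Dkk3*, a divergent Dickkopf protein with no settled place in canonical signaling, had the highest level per kb of the whole family. It made up 57.6% of the summed level per kb of the secreted inhibitors. Its libraries held 44633, 39246 and 33780.5 normalized counts in Control and 30346, 39588 and 30499 in IDPN. IDPN 2 lay among the Control libraries, while IDPN 1 and IDPN 3 were below them. The log2-Fold_Change was −0.23 (95% interval −0.57 to 0.11, DESeq2 Padj = 0.568), and 0.026 under total-count scaling.

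Of the other inhibitors above the minimum, *Sfrp5* did not overlap between the groups (−0.29, DESeq2 Padj = 0.336). *Frzb* (−0.27, DESeq2 Padj = 0.568) and *Sfrp1* (0.14, DESeq2 Padj = 0.869) did overlap, and *Sfrp1* was lowest in Control 1, at 1522 normalized counts beside 2609.7 and 3705 in the other Control libraries. *Dkk1* and *Dkk4*, classical antagonists of LRP5 and LRP6, had 1 count each over all libraries.

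**Figure D3:**
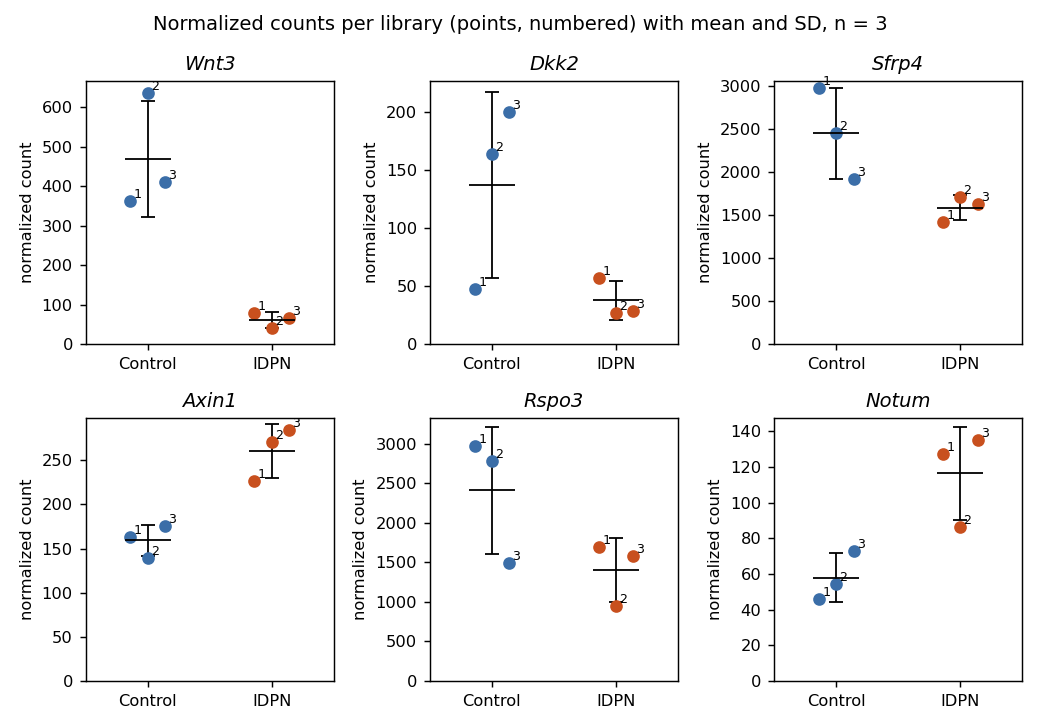
Normalized count (y axis, from 0) in each library for the 4 called members and for *Rspo3* and *Notum*, which lay just outside the Padj threshold, with points numbered by library and lines for the mean and SD (n = 3 per group). *Wnt3*, *Sfrp4*, *Axin1* and *Notum* have no overlap between Control and IDPN, while Control 1 of *Dkk2* (47.3) lies below IDPN 1 (57.1) and Control 3 of *Rspo3* lies inside the IDPN range.

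The cell-surface E3 ligases, which clear Frizzled receptors from the membrane, differed by less than the spread of the libraries. *Znrf3* had 2779.8, 2573 and 2089 normalized counts in Control and 2078, 2604 and 2186 in IDPN. *Rnf43* had 574, 575 and 665 normalized counts in Control and 718, 558 and 652 in IDPN. Both genes overlapped between the groups, with log2-Fold_Changes of −0.12 (95% interval −0.46 to 0.23, DESeq2 Padj = 0.829) and 0.088 (95% interval −0.28 to 0.45, DESeq2 Padj = 0.887). The sign of *Znrf3* turned under total-count scaling (0.14).

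The pair of Axins, scaffolds of the complex that degrades β-catenin, lay in opposite directions. *Axin1*, the constitutive scaffold (ENSMUSG00000024182.16, chr17:26138688-26195811, plus strand), had 163, 139.7 and 175 normalized counts in Control and 226, 271 and 284 in IDPN. All IDPN libraries were above all Control libraries. The means were 159 ± 18 and 260.2 ± 30.4 (SD, n = 3 each), and *Axin1* rose by 0.71 (SE 0.24, 95% interval 0.24 to 1.17, DESeq2 Padj = 0.0486). The call sat at the threshold. It was kept under total-count scaling (0.94, DESeq2 Padj = 0.0307) and without Control 3 (0.79, DESeq2 Padj = 0.0339). It was lost in edgeR's quasi-likelihood test (adjusted p = 0.0933), with no independent filtering (DESeq2 Padj = 0.0702), and, at a DESeq2 Padj of 0.0685 to 0.226, without Control 1, Control 2, IDPN 1, IDPN 2 or IDPN 3.

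*Axin2*, itself a canonical target gene and a common readout of β-catenin activity, had 325, 244 and 273 normalized counts in Control and 239, 148 and 205 in IDPN. The IDPN libraries were again apart from the Control libraries, here below them, with a small gap between Control 2 and IDPN 1. Its log2-Fold_Change of −0.50 (SE 0.26, 95% interval −1.01 to −0.0043) did not pass (DESeq2 Padj = 0.29), and was −0.22 under total-count scaling (DESeq2 Padj = 0.722).

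Of the TCF/LEF factors, which bind DNA with β-catenin, none was called. *Tcf7*, the highest of them per kb, had 87.3, 94.6 and 131 normalized counts in Control and 149.8, 120.5 and 166 in IDPN. Control 3 lay within the IDPN range, and the difference of 0.48 (95% interval −0.11 to 1.06) did not pass (DESeq2 Padj = 0.443). *Lef1* had 327, 305 and 483 normalized counts in Control and 430.3, 318 and 265 in IDPN. Its groups overlapped, at −0.14 (95% interval −0.65 to 0.37, DESeq2 Padj = 0.869), and its sign turned under total-count scaling (0.092), without Control 3 (0.098) and without IDPN 3 (0.0076). *Tcf7l2* was at −0.049 (95% interval −0.47 to 0.37) and *Tcf7l1* at 0.31 (95% interval −0.40 to 1.02), with neither called.

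Summed per kb over each role, the ligands stood at 2129.6 ± 90.6 for Control animals and 1929 ± 312 for IDPN animals, and the Frizzled receptors at 2474 ± 1237 and 3878 ± 814 (SD, n = 3 each). The R-spondins and LGR receptors summed to 1049.7 ± 190 and 711 ± 126. Within each of these sums, the member with the largest share was *Wnt5a* (35.4% of the ligands), *Fzd9* and *Rspo3* in turn. The log2 ratios of these sums, −0.14, 0.65 and −0.56, became 0.19, 0.90 and −0.15 when each library was scaled to the same total over all genes. For all members the ratio was −0.14, and 0.21 with that scaling.

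**Figure D4:**
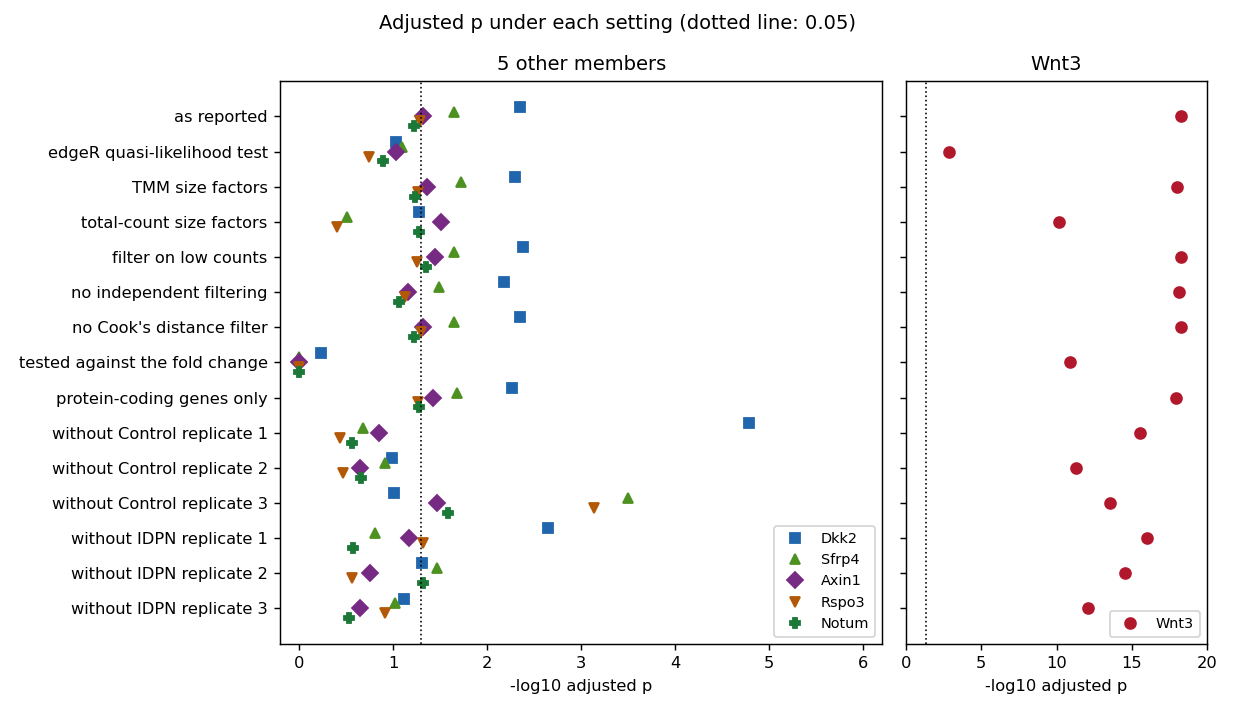
Adjusted p on a −log10 axis (x axis) under each setting (rows) for the 4 called members, *Rspo3* and *Notum*, with *Wnt3* in a panel of its own and a dotted line at 0.05. *Wnt3* is to the right of the line in every row, and the other 5 genes cross it.

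Genes that act with the members were taken from lists of secretion factors, other receptors and modulators, the cytoplasmic and nuclear pathway, planar cell polarity and canonical targets. Of these 88 genes, 80 received a Padj and DESeq2 called 8 (10%, beside the 5.75% of all genes tested), 5 lower and 3 higher. The median log2-Fold_Change of the 82 with a mean of at least 10 was 0.11. edgeR's quasi-likelihood test called 4 of them, *Sostdc1*, *Gpc6*, *Bambi* and *Ccnd2*.

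Among the 20 other receptors and modulators, 2 were called lower and 1 higher (3.42% and 2.32% of all genes tested). Of the 18 with a mean of at least 10, 9 were lower and 9 higher, with a median of −0.016. Under total-count scaling 7 were lower and 11 higher. *Sostdc1*, whose product (also called WISE) binds LRP5, LRP6 and BMP ligands, had 951, 633 and 598 normalized counts in Control and 2473, 2561 and 3311 in IDPN. Every IDPN library was far above every Control library. Its log2-Fold_Change was 1.94 (SE 0.21, 95% interval 1.52 to 2.35, DESeq2 Padj = 5.08e-17), and with each library left out it ranged from 1.79 to 2.17. *Gpc6*, a glypican, a heparan sulfate carrier that binds Wnt ligands at the cell surface, had 452, 413 and 609 normalized counts in Control and 182, 134 and 186 in IDPN. The groups were again well apart. It fell by 1.56 (SE 0.24, DESeq2 Padj = 1.85e-08), and ranged from −1.67 to −1.37 with each library left out.

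*Tspan12*, a tetraspanin that joins the Frizzled 4 and Norrin complex, had 19803, 14906 and 12581 normalized counts in Control and 8392, 10861 and 10023 in IDPN. All IDPN libraries were below all Control libraries. It fell by 0.69 (SE 0.19, DESeq2 Padj = 0.0093), but did not pass under total-count scaling (−0.42, DESeq2 Padj = 0.198) or without Control 1 (−0.50, DESeq2 Padj = 0.121), IDPN 1 (−0.59, DESeq2 Padj = 0.103) and likewise IDPN 3 (−0.71, DESeq2 Padj = 0.0559).

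Of the 28 genes of the cytoplasmic and nuclear pathway, 22 were higher and the others lower (all 28 higher under total-count scaling), with a median of 0.20 and 1 call. *Csnk1e*, a casein kinase that phosphorylates Dishevelled proteins, had 121, 105 and 147 normalized counts in Control and 181, 282 and 242 in IDPN. The groups did not overlap. It rose by 0.91 (SE 0.27, DESeq2 Padj = 0.0195), and this call was lost without Control 1, Control 2, IDPN 2 or IDPN 3, where its log2-Fold_Change was 0.76 to 0.89 at a DESeq2 Padj of 0.0971 to 0.174. None of the 18 planar cell polarity genes was called, nor either secretion factor.

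Of the 20 canonical target genes outside the members, 3 were called lower and 1 higher (3.42% and 2.32% of all genes tested). Of the 16 with a mean of at least 10, 7 were lower and 9 higher, with a median of 0.18. Under total-count scaling 6 were lower and 10 higher. *Bambi*, a decoy receptor of the TGF-β family, had 1409, 1364 and 1540.0 normalized counts in Control and 790.3, 899.6 and 753 in IDPN. *Ccnd2*, a cyclin of the G1 phase, had 5238, 5686 and 4278 normalized counts in Control and 2931, 2605 and 3341 in IDPN. *Tcf4*, an E protein of the basic helix-loop-helix family and not a TCF/LEF factor, had 4318, 5121 and 3771 normalized counts in Control and 2683, 2966 and 2997 in IDPN. In each of these 3 genes all IDPN libraries were below all Control libraries.

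The falls were 0.82 for *Bambi* (SE 0.16, DESeq2 Padj = 4.62e-05), 0.78 for *Ccnd2* (SE 0.17, DESeq2 Padj = 0.000401) and 0.61 for *Tcf4* (SE 0.17, DESeq2 Padj = 0.00704). None of the 3 was called under total-count scaling, where *Bambi* was at −0.59 (DESeq2 Padj = 0.120), *Ccnd2* at −0.50 (DESeq2 Padj = 0.176) and *Tcf4* at −0.35 (DESeq2 Padj = 0.326). *Tcf4* was also lost without Control 2 (−0.49, DESeq2 Padj = 0.0860) and with IDPN 1 removed (−0.56, DESeq2 Padj = 0.0717).

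*Plaur*, the urokinase receptor, had 15.8, 9.23 and 8.9 normalized counts in Control and 15.7, 159 and 28 in IDPN. The value in IDPN 2 was far above the rest, and the other IDPN libraries were near the Control range. It rose by 2.58 with all libraries (SE 0.74, DESeq2 Padj = 0.0123) and was at 0.96 without IDPN 2 (DESeq2 Padj = 0.695). It was also not called without Control 2 (2.45, DESeq2 Padj = 0.106) or Control 3 (2.43, DESeq2 Padj = 0.0605).

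**Figure D5:**
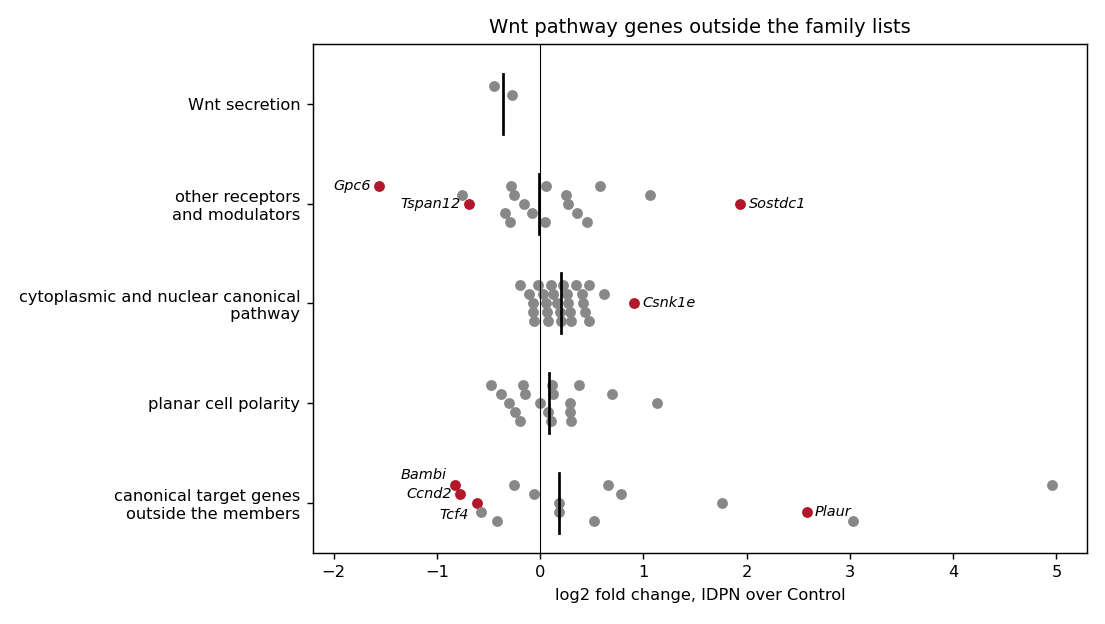
Log2 fold change of IDPN over Control (x axis) for the 82 Wnt pathway genes outside the family with a mean of at least 10 normalized counts, by list, with called genes in red and named and a vertical bar at each list's median. *Sostdc1* (1.94) and *Gpc6* (−1.56) lie apart from the rest of their list, and the cytoplasmic and nuclear pathway has its median at 0.20.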

How the data were processed

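Total RNA (6 to 11 ng) was made into SMART-seq2 libraries with 8 and 12 cycles of PCR and no molecular identifiers, so the floor given for a count of 0 covers counting error only. The 95% intervals of fold changes come from the DESeq2 SE and include the spread between animals. Reads carry no strand. The authors aligned them with STAR 2.5.3a to GRCm38 and deposited RSEM estimated counts (expected counts) per gene, already rounded to whole numbers. RSEM is listed as 2.3.0 in the submitters' processing notes. Here the whole table was fitted with DESeq2 1.42.0 in R 4.3.3 (Wald test, median-of-ratios size factors, Benjamini-Hochberg Padj under 0.05, fold change over 1.5). edgeR 4.0.16 (quasi-likelihood test), other scalings and filters (10 counts in 3 libraries), a test against the fold change and leaving out each library were alternatives. Gene positions and exon lengths came from a GRCm38 annotation of a later release than the authors', matched for 99.7% of genes, and promoters from RefSeq. Replicates were separate animals, numbered in accession order.

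Each member that was called, or had an unadjusted p under 0.05, or was among the 2 highest per kb of its role, was named. Genes outside the members were named where called. The members and lists were chosen with earlier results of these data known. The fits were tested on simulated data with large changes only, so that test does not bear on the smaller differences given here.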

Additional observations from a re-analysis of the deposited data

How the results depend on the processing

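No paired analysis was possible because the labels give no replicate numbers that pair the animals. The 11 members with a mean under 10 normalized counts had little depth for a difference to show, and of them only *Fzd5* received a Padj (DESeq2 Padj = 0.470). Over all genes, 410 were called higher and 604 lower. edgeR called 166 and 357, total-count scaling 609 and 214, which turned the balance toward higher calls, a test against the fold change 34 and 111, and leaving out each library 234 to 611 and 436 to 720. Of the members, 1 was called higher and 3 lower. edgeR called 0 and 1, total-count scaling 1 and 1, a filter on low counts 2 higher, no independent filtering 0 higher, the test against the fold change 0 and 1, and leaving out each library 0 to 2 and 1 to 4. The members' median of −0.033 became 0.21 under total-count scaling, where that of protein-coding genes went from 0.012 to 0.26. With each library left out, the members' median ran from −0.091 to 0.038. Of the 88 pathway genes, 3 were called higher and 5 lower. edgeR called 1 and 3, total-count scaling 5 and 1, the test against the fold change 1 and 1, and leaving out each library 1 to 4 and 4 to 6. Scaling to equal totals per kb moved the log2 ratios of the summed levels to 0.19 (ligands), 0.42 (LRP co-receptors), −0.15 (R-spondins and LGR receptors), 0.099 (secreted inhibitors), 0.30 (E3 ligases), 0.52 (Axins), 0.48 (TCF/LEF factors) and 0.21 (all members).

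Of the 46 members with a mean of at least 10, 24 were lower in the main fit and 12 under total-count scaling. Among the 25 members followed across settings, that scaling turned the sign of *Dkk3* (0.026), *Znrf3* (0.14) and *Lef1* (0.092), none of them called. Leaving out each library gave −0.21 to 0.33 for *Fzd7*, −0.027 to 0.35 for *Lrp6*, −0.21 to 0.45 for *Lrp5*, −0.091 to 0.29 for *Lgr4* and −0.35 to 0.098 for *Lef1*. Some alternatives kept the log2-Fold_Changes of the main fit, so no direction could change under them. These were no fold-change threshold, no independent filtering, no Cook's distance filter and the test against the fold change. With them counted, over 25 members and 8 pathway genes named, 426 of 493 values under an alternative kept their direction and their side of the threshold. Of the others, 47 kept the direction but lost the call, 6 gained a call and 14 changed sign. The cause of these changes was not tested.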
